A study of Mus musculus with 2 samples.

Results

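The 10 genes described here are imprinted genes, which in most tissues are transcribed mainly from the copy inherited from 1 parent: H19, Meg3, Rian, Mirg, Dlk1, Peg3, Mest, Grb10, Plagl1 and Ndn. They were chosen by name, not by their values, and are 10 of the 32285 genes in the deposited matrices. All 10 were detected. Muscle stem cells (MuSCs) had been sorted from the plantaris of Pax7rtTA; TRE-H2B-GFP mice aged 26 weeks, in which the Pax7 locus drives a doxycycline-dependent activator of a nuclear green fluorescent protein. All mice had drunk doxycycline at 2.0 mg/mL for 2 weeks, and the plantaris was taken 5 days after either sham surgery or mechanical overload (MOV), in which synergist muscle is excised so that the plantaris carries more load. Cells had been sorted as positive for VCAM and negative for CD31, CD45 and SCA1 and profiled with 3′ single-cell RNA sequencing, in 1 sham library and 1 MOV library (labelled Overload). By the study's methods each library held the muscles of several mice, whereas the labels speak of a single mouse, so each condition counts as 1 sample. The methods name male and female mice. Xist, an RNA of female cells, had 0 UMIs in the sham and 4 in the MOV library, and the Y-linked Ddx3y had 622 and 6226.

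In genomic imprinting, marks laid down in the egg or sperm silence 1 parental copy of a gene for life. As background, H19, Meg3, Rian and Mirg are noncoding RNAs expressed from the maternal copy, while Dlk1, Peg3, Mest, Plagl1 and Ndn are expressed from the paternal copy, and Grb10 from the maternal copy in most peripheral tissues. Many imprinted genes act on fetal and postnatal growth, and several are known in MuSCs, where H19 and the Dlk1 region have been linked to quiescence and to differentiation. UMI counts from the 3′ end do not tell the parental copies apart, so every level below is the sum of both.

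In the GENCODE annotation of GRCm38, 4 members lie in order on the forward strand of chromosome 12: Dlk1 at chr12:109452823-109463336, Meg3 at chr12:109541001-109571726, Rian at chr12:109603940-109661716 and Mirg at chr12:109729764-109749460. H19 lies at chr7:142575529-142578143 on the reverse strand, near Igf2. Copg2 overlaps the 3′ end of Mest on the opposite strand, and whether the counting used strand is not given in the sources used here. The others are Peg3 at chr7:6703892-6730431, Ndn at chr7:62346569-62350262, Mest at chr6:30723547-30748465, Grb10 at chr11:11930508-12038683 and Plagl1 at chr10:13060504-13131694. The noncoding members also hold miRNA precursors. RefSeq places 1 precursor inside H19, 1 inside Meg3, 3 inside Rian and 14 inside Mirg, and 54 precursors with 106 mature miRNAs on the forward strand between the start of Meg3 and the end of Mirg. The mature miRNAs themselves were not measured here. The following are shown because they are what these host transcripts encode: both arms from H19, 1 arm each from Meg3 and Rian, and the only 2 miRNAs inside these 4 genes that share a seed, both in Mirg. Capitals mark the seed, bases 2 to 8.
mmu-miR-675-5p (H19, chr7:142577112-142577133): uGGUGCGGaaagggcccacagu
mmu-miR-675-3p (H19, chr7:142577078-142577099): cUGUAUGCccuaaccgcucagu
mmu-miR-770-3p (Meg3, chr12:109563744-109563765): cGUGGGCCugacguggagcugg
mmu-miR-370-3p (Rian, chr12:109618305-109618326): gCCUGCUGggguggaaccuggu
mmu-miR-453 (Mirg, chr12:109735669-109735692): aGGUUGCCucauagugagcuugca
mmu-miR-496a-5p (Mirg, chr12:109739132-109739152): aGGUUGCCcaugguguguuca

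Rian and Mirg lie downstream of Meg3 on the same strand, and the 3 RNAs differed in the same direction in several of the comparisons below. The promoter of Meg3 is therefore printed, beside that of Peg3, the other member whose window holds the same palindrome. Each window runs from 250 bases before to 50 bases after a RefSeq start (GRCm38.p6), and capitals mark the palindrome TGACGTCA, the full binding site of CREB-type factors.
Meg3 promoter (chr12:109540746-109541045, forward strand): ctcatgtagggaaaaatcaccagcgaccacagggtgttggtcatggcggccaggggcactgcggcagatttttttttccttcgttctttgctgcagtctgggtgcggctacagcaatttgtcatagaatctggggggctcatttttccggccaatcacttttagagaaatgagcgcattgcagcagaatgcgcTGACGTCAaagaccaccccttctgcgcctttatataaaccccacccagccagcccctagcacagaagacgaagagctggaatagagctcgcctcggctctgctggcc
Peg3 promoter (chr7:6730370-6730669, reverse strand): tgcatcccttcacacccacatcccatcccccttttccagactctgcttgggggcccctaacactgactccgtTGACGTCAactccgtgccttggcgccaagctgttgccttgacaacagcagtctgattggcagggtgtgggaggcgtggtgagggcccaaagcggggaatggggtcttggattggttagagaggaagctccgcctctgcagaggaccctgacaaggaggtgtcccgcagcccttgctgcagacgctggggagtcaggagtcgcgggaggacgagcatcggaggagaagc
The palindrome begins 57 bases before the start of Meg3 and 178 bases before that of Peg3, in 1 of 2 Meg3 windows and the only Peg3 window, and 1.79% of all 32851 RefSeq windows of this length hold it. On both strands, 4 other motifs were searched in the 13 windows of 9 members. GGGGCCCC, the core bound by Plagl1, was in the Peg3 window (1.08% of all windows). CAGCTG, an E-box bound by myogenic factors, was in 1 of 3 Mest windows (16.3% of all). CACGTG, the Myc and Max E-box, was in the Plagl1 window (7.15%), and GCCATNTT, a YY1-type core, was in none (6.05%). The CpG count of a window was lowest for Rian, with 0, and highest for 1 of 2 Grb10 windows, with 45, against a median of 7 over all windows. These are letter matches and say nothing of binding.

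Cells were assigned to groups by the UMIs of marker genes. The sham library held 1100 barcodes and 7302661 UMIs and the MOV library 3854 barcodes and 88498487 UMIs, of which 738 and 3060 cells stayed below 10% mitochondrial UMIs. Both libraries are labelled as muscle stem cells. However, in 484 of the 738 sham droplets adult fast myosins and other fiber genes summed to at least 100 per 10000 UMIs (myofiber droplets). A further 24 sham and 295 MOV cells carried Pdgfra, a marker of fibro-adipogenic progenitors. Non-cycling MuSCs with Pax7, Myf5, Myod1 or Chodl numbered 106 in sham and 729 in MOV. They were split into cells with the quiescence markers Chrdl2 or Calcr (66 and 168), cells with the matrix markers Islr and Gpc3 (1 and 203) and remaining cells (39 and 358). Cycling MuSCs numbered 10 and 637, and cells with Myog, the regulator of myocyte commitment, 1 and 126. Cells with markers of more than 1 lineage were left out, 37 in sham and 364 in MOV. Of those in MOV, 141 met the rules of both MuSCs and tenocytes. A further 42 sham and 490 MOV cells met no marker rule and entered no group. In all, 44 barcodes occurred in both libraries. Leaving these out kept 103 of the 106 sham non-cycling MuSCs, 23 of the 24 sham Pdgfra cells and 20 of the 39 MOV myofiber droplets. Levels are UMIs of a gene per 1000000 UMIs summed over a group (CPM), and intervals are 95% exact intervals that cover counting error only. With 1 library per condition no test was made, and "higher" or "lower" in a count of genes means at least 2-fold, with at least 20 UMIs over both groups.

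**Figure D1:**
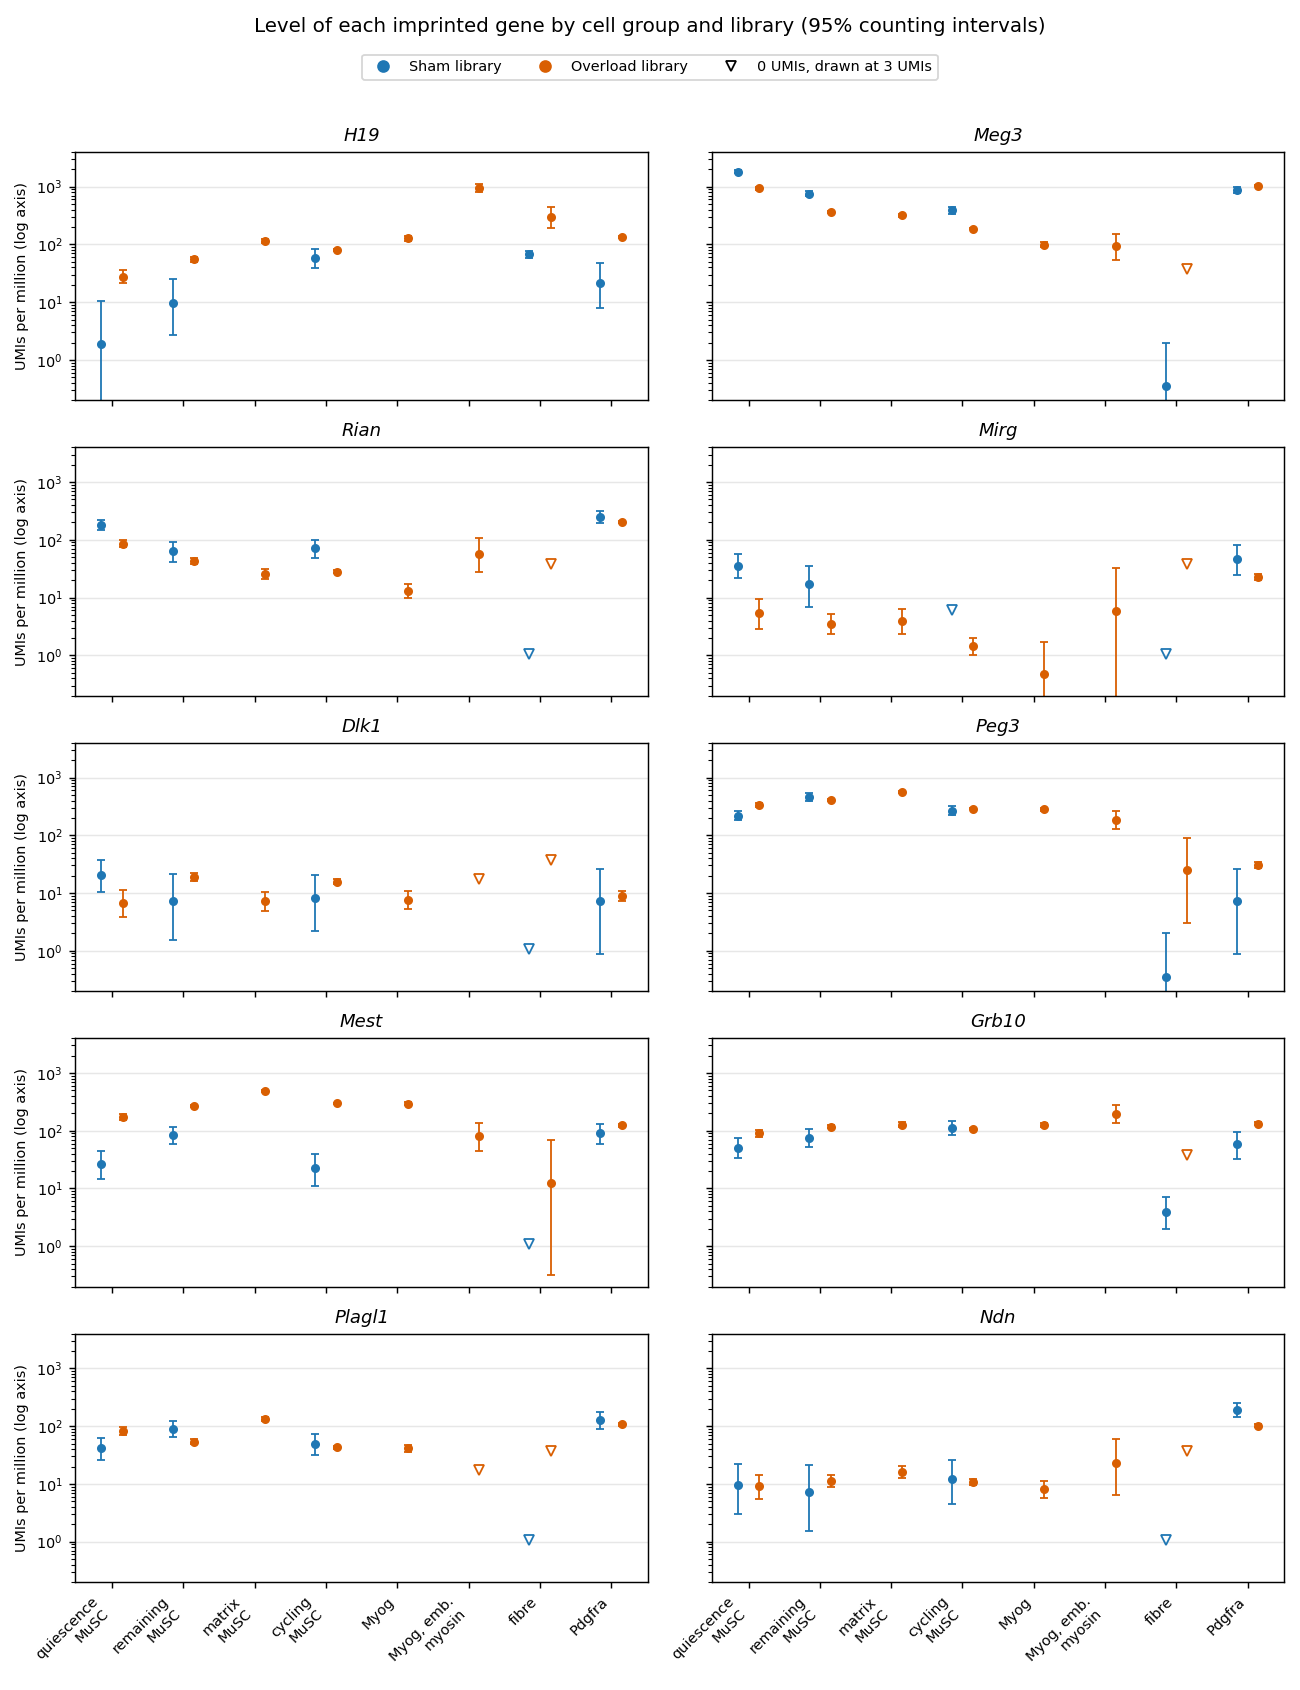
CPM of each gene (log axis) by cell group, for groups of at least 5 cells, in the sham (blue) and Overload (orange) libraries, with 95% counting intervals as bars. Open triangles mark groups with 0 UMIs, drawn at the level of 3 UMIs. Meg3 declines from quiescence-marker MuSCs (1813 and 932) to Myog cells (98.4), whereas H19 climbs from 1.89 and 27.8 to 943 in Myog cells with embryonic myosin.

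The first comparison asked how MuSCs outside the cell cycle differed between MOV and sham. The maternally expressed RNAs of chromosome 12 were lower in MOV, and H19 and Mest were higher. Of the 10 members, 2 were higher, where 20.1% of the 10851 genes compared were, and 3 were lower, where 8.94% were. The other 5 lay within 2-fold. The median log2 ratio of the members was 0.39, against 0.26 over all genes compared.

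Meg3, a noncoding RNA studied as a growth suppressor, had 1356 CPM in sham and 440 CPM in MOV, a log2 ratio of -1.62 (-1.71 to -1.53). Rian, the host of many small nucleolar RNAs, had 129 and 44.5 CPM (-1.54, interval -1.82 to -1.25). Mirg, the miRNA host, had 27.3 and 3.99 CPM from 26 and 55 UMIs (-2.78, interval -3.47 to -2.04). All 3 were thus lower in the MOV library, and the interval of Mirg lay wholly below that of Meg3. Dlk1, a transmembrane protein related to Notch ligands, is encoded upstream in the same domain and had 14.7 and 13.6 CPM. Its log2 ratio of -0.12 (-0.90 to 0.78) rested on 14 sham UMIs, 11 of them in 1 cell. Without the cell holding the most UMIs in each group the ratio was 1.92, and at a mitochondrial limit of 5% it was -1.28, so the data fix no direction for Dlk1.

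H19 was all but absent from sham non-cycling MuSCs, with 5 UMIs in 3 of 106 cells (5.25 CPM). It had 957 UMIs in 223 of 729 MOV cells (69.3 CPM). The log2 ratio was 3.72 (2.50 to 5.35). Sham cycling MuSCs did hold H19, in 5 of 10 cells. Mest, a putative hydrolase of the mesoderm, had 58.8 CPM in sham and 323 CPM in MOV (2.46, interval 2.08 to 2.86). In cells thinned to 4000 UMIs, 1.01% of sham and 15.1% of MOV cells held an H19 UMI, and 11.1% and 42.0% a Mest UMI. Without thinning these shares were 2.83% and 30.6% for H19 and 14.2% and 64.5% for Mest. The shares thus differed at equal depth as well. Median depth was 7814 UMIs in sham and 16324 in MOV, and median mitochondrial share 5.65% and 3.18%. Their part in these ratios was not tested beyond the thinning.

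Peg3, a zinc finger protein with roles in cell survival and in muscle stem cells, had 345 CPM in sham and 448 CPM in MOV (0.38, interval 0.22 to 0.54). Grb10, an adaptor that dampens insulin and IGF1 receptor signaling, had 63.0 and 117 CPM (0.89, interval 0.52 to 1.29). Plagl1, a zinc finger factor that regulates other imprinted genes, had 63.0 and 83.3 CPM (0.40, interval 0.03 to 0.80). Ndn, a MAGE family protein that restrains cell cycle entry, had 8.40 and 12.5 CPM (0.57, interval -0.44 to 1.80). Of these 4 protein-coding members, none was 2-fold apart, and the interval of Ndn included 0. Without the barcodes found in both libraries Grb10 was at 1.00, Plagl1 at 0.90, Peg3 at 0.68 and H19 at 4.92, and 6 members in place of 5 were at least 2-fold apart. When totals were scaled by TMM factors, all ratios of this comparison shifted by -0.21.

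Because sham MuSCs were mostly cells with quiescence markers, the libraries were also compared within that state (66 and 168 cells). Here 3 members were higher (17.8% of 7549 genes) and 3 lower (6.15%). Meg3 had 1813 CPM in sham and 932 CPM in MOV (-0.96, interval -1.07 to -0.85), just inside 2-fold. Rian had 182 and 85.5 CPM (-1.09, interval -1.45 to -0.72), and Mirg 35.9 and 5.46 CPM (-2.72, interval -3.89 to -1.60). The direction for these 3 RNAs was thus the same as over all non-cycling MuSCs, and the size was smaller for Meg3 and Rian. Mest had 26.5 and 173 CPM (2.71, interval 1.95 to 3.60), with 7 of 66 sham cells holding a UMI and 85 of 168 MOV cells. With doubled marker thresholds (40 sham cells) 1 member, Mest at 1.95, was counted as at least 2-fold apart. Mirg kept a ratio of -1.83 there but fell under the minimum of 20 UMIs, and Rian was at -0.79. H19 had 1 sham UMI and 61 MOV UMIs (3.88, interval 1.34 to 9.20), and at a mitochondrial limit of 5%, which left 20 sham cells, its ratio was 0.83. Plagl1 had 41.6 and 83.3 CPM, on the 2-fold line at 1.00 (0.36 to 1.71), and at doubled marker thresholds its ratio was 0.41. Dlk1 was counted as lower (-1.61, interval -2.83 to -0.34), but all 11 sham UMIs came from 1 cell, without which no ratio could be given. Peg3, Grb10 and Ndn had log2 ratios of 0.59, 0.83 and -0.06.

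**Figure D2:**
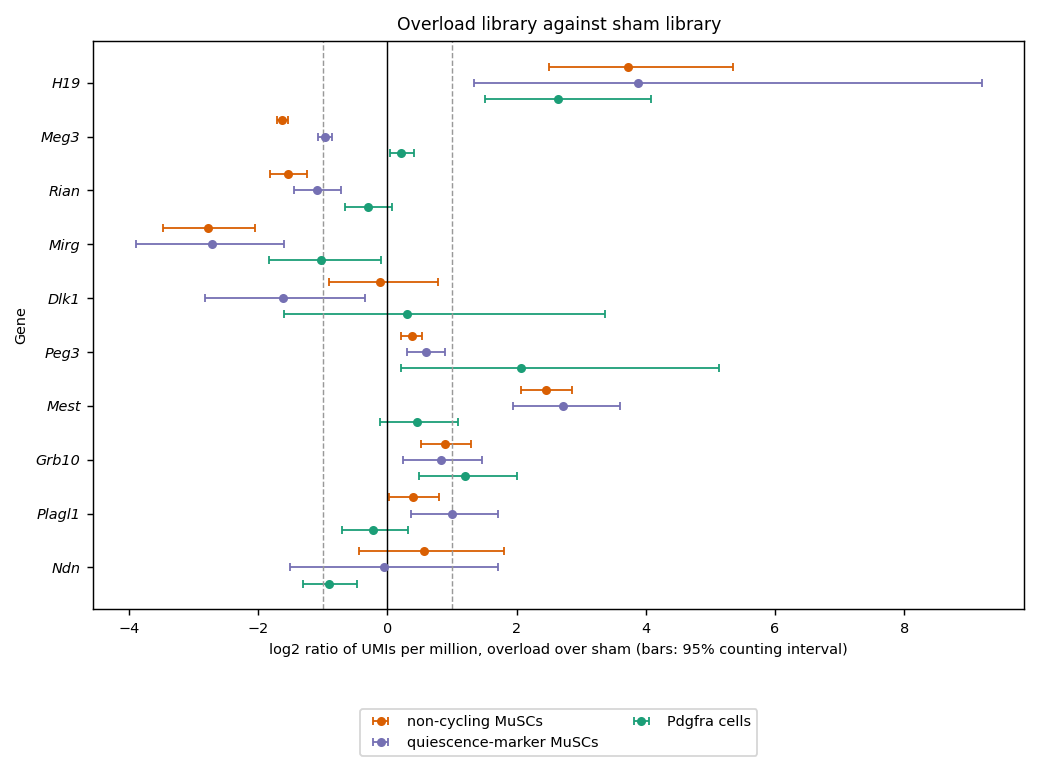
log2 ratio of CPM, overload over sham, for each gene in non-cycling MuSCs (orange), quiescence-marker MuSCs (purple) and Pdgfra cells (green), with 95% counting intervals as bars and dashed lines at 2-fold. Meg3 lies at -1.62 and -0.96 in the MuSC groups and at 0.22 in Pdgfra cells, while H19 lies at 3.72, 3.88 and 2.63.

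Within the MOV library, MuSC states were compared with the remaining non-cycling MuSCs, which fell below the thresholds for the quiescence and matrix markers. Median depth was 12578 UMIs in quiescence-marker cells and 17694 in remaining cells, and its part in these ratios was not tested. In cells with quiescence markers 1 member was higher, Meg3 (2.84% of 10461 genes were higher), and 2 were lower, H19 and Dlk1 (7.66%). Meg3 had 932 CPM against 363 CPM (1.36, interval 1.27 to 1.44). Rian had 85.5 against 43.0 CPM (0.99, interval 0.72 to 1.26), just under 2-fold. H19 had 27.8 against 55.7 CPM (-1.01, interval -1.42 to -0.61), and Dlk1 6.82 against 19.2 CPM (-1.49, interval -2.37 to -0.72). With doubled marker thresholds, 6 members were at least 2-fold apart, and with the mean over cells H19 was at -0.80. Plagl1 had 83.3 against 53.5 CPM (0.64, or -0.06 with doubled thresholds), and the other members, Mirg included, lay between -0.65 and 0.62 on the log2 scale.

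Cells with the matrix markers had the highest level among the MuSC states of MOV for each of H19 (114 CPM), Peg3 (567), Mest (486), Plagl1 (135), Grb10 (128) and Ndn (16.2). Against the remaining cells 2 members were higher, H19 at 1.04 (0.84 to 1.23) and Plagl1 at 1.33 (1.14 to 1.52), where 3.23% of 10903 genes were. Dlk1 was lower, 7.28 against 19.2 CPM (-1.40, interval -2.01 to -0.83), where 2.69% of genes were. Mest and Peg3 differed by 0.84 (0.75 to 0.93) and 0.45 (0.37 to 0.53). Grb10 (0.11, interval -0.05 to 0.27) could not be told apart from the remaining cells, and Ndn was at 0.52 (0.04 to 1.00). With doubled thresholds the H19 ratio was 0.51. H19 was found in 99 of 203 matrix-marker cells and in 99 of 358 remaining cells. After thinning, 28.2% of matrix-marker cells held an H19 UMI against 7.88% of quiescence-marker cells.

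Cycling MuSCs carry proliferation genes such as Mki67 and Top2a. Against non-cycling MuSCs of MOV, no member was higher in them (8.75% of 12800 genes were) and 2 were lower (7.23%). These were Meg3, with 188 against 440 CPM (-1.23, interval -1.28 to -1.17), and Mirg, with 1.46 against 3.99 CPM (-1.45, interval -2.09 to -0.83). Neither stayed past 2-fold under every alternative. With the 5% of cells holding the most UMIs left out, Meg3 was at -0.87, and with the mean over cells Mirg was at -0.87. Plagl1 had 43.3 against 83.3 CPM (-0.94, interval -1.06 to -0.82), Rian 28.2 against 44.5 CPM (-0.66, interval -0.82 to -0.50) and Peg3 289 against 448 CPM (-0.63, interval -0.68 to -0.58). H19 (79.8 against 69.3 CPM), Mest (300.4 against 323 CPM), Grb10 (106 against 117 CPM), Dlk1 (15.7 against 13.6 CPM) and Ndn (10.8 against 12.5 CPM) lay within 0.21 of 0. Median depth was 34456 UMIs in cycling cells and 16324 in non-cycling cells. The 10 sham cycling cells had 387 CPM of Meg3 (114 of its 191 UMIs in 1 cell), 58.8 CPM of H19 and 22.3 CPM of Mest.

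In Myog cells the chromosome 12 RNAs were lower still and H19 was higher. The reference group is the same as for cycling cells, so these comparisons share it. Of the members, 1 was higher (7.62% of 11723 genes) and 4 were lower (9.39%). Meg3 had 98.1 CPM in Myog cells and 440 CPM in non-cycling MuSCs (-2.17, interval -2.31 to -2.03). Rian had 14.8 and 44.5 CPM (-1.59, interval -1.98 to -1.22), and Mirg 3 UMIs in 126 cells against 55 UMIs in 729 cells (-2.57, interval -4.89 to -0.95). Plagl1 had 39.9 and 83.3 CPM (-1.06, interval -1.30 to -0.83), or -0.87 with the 5% of cells holding the most UMIs left out. H19 had 159 and 69.3 CPM (1.20, interval 1.05 to 1.34), or a ratio of 2.41 with the mean over cells and 1.72 with the tenocyte markers not counted. Peg3 (277 CPM), Mest (286 CPM), Grb10 (130 CPM) and Ndn (8.74 CPM) stayed within 2-fold of their levels in non-cycling MuSCs, as did Dlk1 (7.39 CPM, -0.87, interval -1.45 to -0.33, or -1.70 with the tenocyte markers not counted). Thinned to 4000 UMIs, 20.4% of Myog cells held a Meg3 UMI and 2.65% a Rian UMI, against 50.2% and 17.0% of non-cycling MuSCs.

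Only 7 Myog cells also carried the embryonic myosins Myh3 or Myh8, the first heavy chains of forming fibers. H19 had 943 CPM in them, present in all 7 cells, and 127 CPM in the 119 Myog cells without these myosins (2.89, interval 2.63 to 3.15). Of its 163 UMIs, 77 were in 1 cell. Of the 8 members that could be compared, 3 were higher (12.1% of 7774 genes) and 2 were lower (21.8%). The other higher members rested on few molecules. Rian had 10 UMIs, 9 of them in 1 cell (2.15, or -1.04 without that cell and -0.93 at a mitochondrial limit of 5%), and Ndn had 4 UMIs (1.50, interval -0.45 to 2.99). Mest was lower, with 14 UMIs in 1 of the 7 cells (81.0 against 295 CPM, -1.86, interval -2.74 to -1.11). Plagl1 had 0 UMIs and, set at 3 UMIs, was 2.39-fold lower (-1.26, or -0.94 at a mitochondrial limit of 5%). Its interval bound nearest 0 was -0.94, inside 2-fold. Peg3 had 185 against 280 CPM (-0.60) and Grb10 197 against 127 CPM (0.63). Meg3 had 92.6 against 98.4 CPM (-0.09), with 15 of its 16 UMIs in 1 cell. Without the cell holding the most UMIs of each gene, Meg3 was at -3.94, Mest at -3.99, Peg3 at -1.77, Grb10 at 0.11 and H19 at 2.09. Another 86 Myog cells had been left out because they also carried the tenocyte markers Scx or Tnmd. With the tenocyte markers not counted against them, 23 cells had embryonic myosin, H19 had 614 CPM in them against 177 CPM in 188 cells without, Plagl1 had 8 UMIs (5.88 against 25.4 CPM) and the Ndn ratio was 0.08.

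**Figure D3:**
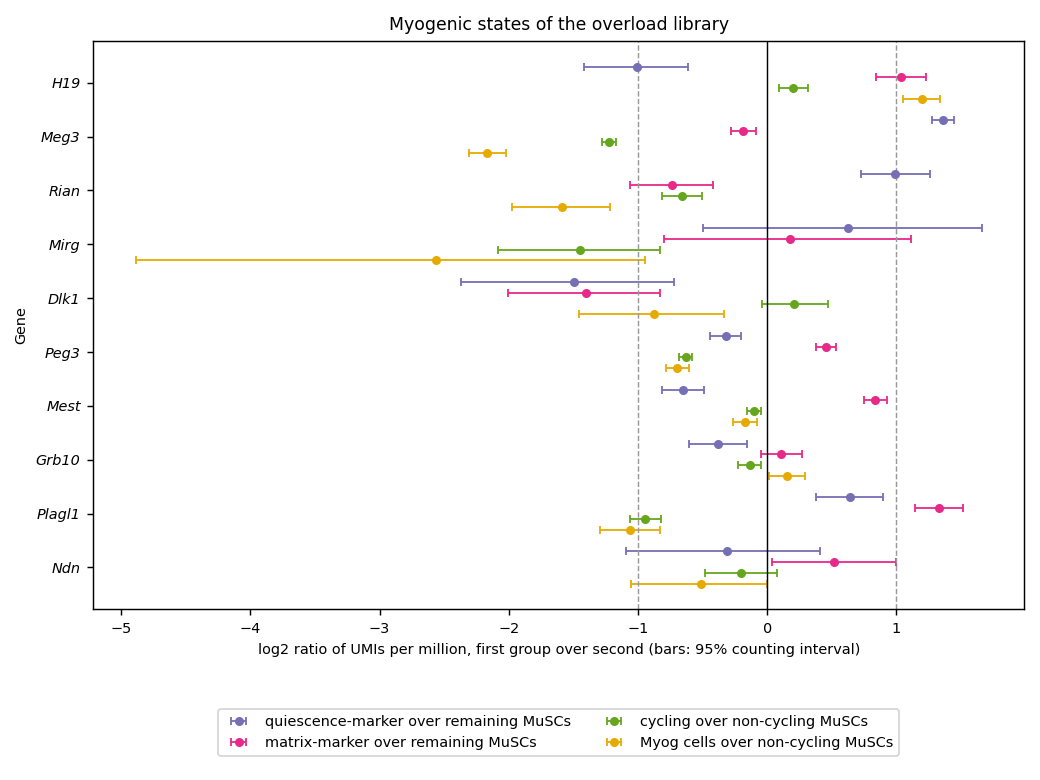
log2 ratio of CPM between myogenic states of the overload library for each gene, with 95% counting intervals as bars and dashed lines at 2-fold. Meg3 lies at 1.36 in quiescence-marker cells (purple) and at -1.23 and -2.17 in cycling (green) and Myog cells (yellow), and H19 has the opposite order, from -1.01 to 1.20, with 1.04 in matrix-marker cells (pink).

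Of the members, H19 was the one present at an appreciable level in myofiber droplets. It had 189 UMIs in 107 of 484 sham droplets, 67.6 CPM (58.3 to 78.0), against 5.25 CPM in sham non-cycling MuSCs (3.69, interval 2.44 to 5.33). It was the 1 member that was higher, where 27.3% of 7593 genes were, and the 7 others that could be compared were all lower, where 47.1% of genes were. Meg3 had 1 UMI among 2795741 and Peg3 also 1, against 1291 and 328 in MuSCs (-11.89, interval -17.19 to -9.41, and -9.91, interval -15.22 to -7.42). Grb10 had 11 UMIs (3.93 CPM, -4.00, interval -5.08 to -3.06). Rian, Mirg, Dlk1, Mest, Plagl1 and Ndn had 0, which allows up to 1.07 CPM at 3 UMIs. Set at 3 UMIs, Rian was 120-fold lower than in MuSCs, Plagl1 58.7-fold, Mest 54.8-fold and Mirg 25.5-fold. Their interval bounds nearest 0 were log2 ratios of -6.59, -5.53, -5.43 and -4.27. Dlk1 and Ndn were under 20 UMIs in all. Malat1, a nuclear RNA, had 917 CPM in these droplets and 32969 CPM in sham MuSCs, and its bearing on the level of the nuclear RNAs Meg3, Rian and Mirg was not tested. TMM factors moved all ratios of this comparison by 0.75, which changed no direction.

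H19 varied among the sham droplets by their leading adult myosin, a split chosen after the values were seen. Droplets with no UMI of Myh1, Myh2 or Myh4 had no leading myosin and were left out of the split. Droplets led by Myh2, the type IIA chain, had 139 CPM (105 to 182, 54 UMIs in 50 droplets). Droplets led by Myh1, the type IIX chain, had 79.7 CPM (62.0 to 101, 69 UMIs in 148 droplets), and those led by Myh4, the type IIB chain, 41.4 CPM (31.8 to 53.0, 63 UMIs in 268 droplets). The 3 intervals did not overlap, but they cover counting error only and not the spread between droplets. In the Myh2 set the 54 UMIs lay in 23 droplets, with 13 in 1 droplet. The level without that droplet was not examined. Median depth was similar, from 3418 to 4137 UMIs. In the 39 MOV droplets, which were shallow (median 745 UMIs), H19 had 24 UMIs in 5 droplets, 14 of them in 1, or 300.4 CPM (192 to 447). Against MOV non-cycling MuSCs it was the 1 member that was higher (2.12, interval 1.47 to 2.70; 24.6% of 6259 genes) and 5 were lower (30.0%). Of these 5, Meg3, Grb10 and Plagl1 had 0 UMIs. Set at 3 UMIs they were 11.7-fold, 3.11-fold and 2.22-fold lower. Their interval bounds nearest 0 were log2 ratios of -3.25, -1.34 and -0.85, that of Plagl1 inside 2-fold. Peg3 had 2 UMIs (-4.16, interval -7.21 to -2.31) and Mest 1 (-4.69, interval -9.99 to -2.21). Mirg, Dlk1 and Ndn could not be compared at this depth. Without the droplets whose barcodes occurred in both libraries H19 was at 2.37 and Plagl1 at -0.89, and with doubled marker thresholds H19 was at 0.75. Without droplets under 1000 UMIs Plagl1 was at -0.78.

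Pdgfra cells served as the non-myogenic contrast. In MOV, 4 members were higher in them than in non-cycling MuSCs (20.1% of 12579 genes) and 2 were lower (12.8%). Ndn had 103 against 12.5 CPM (3.04, interval 2.81 to 3.28) and was found in 270 of 295 cells. Mirg had 23.0 against 3.99 CPM (2.53, interval 2.10 to 2.98), Rian 202 against 44.5 CPM (2.18, interval 2.05 to 2.31) and Meg3 1029 against 440 CPM (1.22, interval 1.18 to 1.27). Peg3 showed the reverse, with 30.4 against 448 CPM (-3.88, interval -4.05 to -3.72), and Mest had 124 against 323 CPM (-1.38, interval -1.47 to -1.29), or -0.92 with the mean over cells. H19 was just inside 2-fold (135 against 69.3 CPM, 0.96, interval 0.84 to 1.08). Grb10 (132 CPM), Plagl1 (109 CPM) and Dlk1 (8.90 CPM, 48 of its 94 UMIs in 1 cell) differed by less, with Dlk1 at -0.61, or -1.45 without the cell holding the most UMIs.

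In sham, 24 Pdgfra cells and 106 MuSCs gave 8 members to compare, with 2 higher (19.7% of 5630 genes) and 1 lower (18.3%). Ndn had 191 against 8.40 CPM (4.51, interval 3.43 to 5.79) and Peg3 2 UMIs against 328 (-5.58, interval -8.63 to -3.71), so both kept the direction seen in MOV. Plagl1 lay at the 2-fold line, with 126 against 63.0 CPM (1.00, interval 0.36 to 1.63), and at 0.75 when mitochondrial, ribosomal and sarcomere genes were left out of the total. Meg3 was lower in sham Pdgfra cells than in sham MuSCs (884 against 1356 CPM, -0.62, interval -0.82 to -0.42), whereas Rian (249 against 129 CPM) and Mirg (46.9 against 27.3 CPM) had ratios of 0.95 and 0.78. With doubled marker thresholds Meg3 was at -0.05 and Rian at 1.69. H19 had 6 UMIs and Dlk1 2.

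Between the libraries, 3 members were higher in MOV Pdgfra cells than in sham Pdgfra cells (14.1% of 10019 genes) and 1 was lower (17.7%). H19 had 21.7 CPM in sham, from 6 UMIs in 3 of 24 cells, and 135 CPM in MOV, in 151 of 295 cells (2.63, interval 1.51 to 4.08, or 4.02 without the barcodes found in both libraries). After thinning, 0 of 21 sham cells, an interval of up to 16.1%, and 23.8% of MOV cells held a UMI. Grb10 had 57.8 and 132 CPM (1.20, interval 0.49 to 2.01). Peg3 was counted as higher on 2 sham UMIs (2.07, interval 0.21 to 5.13), and at a mitochondrial limit of 20% its ratio was 0.09. Meg3 had 884 and 1029 CPM (0.22, interval 0.04 to 0.41) and Rian 249 and 202 CPM (-0.30, interval -0.65 to 0.07), so the lower level of both in MOV MuSCs was not seen in these cells, although the difference between the cell types was not tested. Mirg had 46.9 and 23.0 CPM from 13 sham UMIs (-1.03, interval -1.83 to -0.10), or -0.72 without the cell holding most UMIs. Ndn had 191 and 103 CPM (-0.90, interval -1.30 to -0.47). Mest, Plagl1 and Dlk1 were at 0.46, -0.22 and 0.30, each with an interval that included 0.

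**Figure D4:**
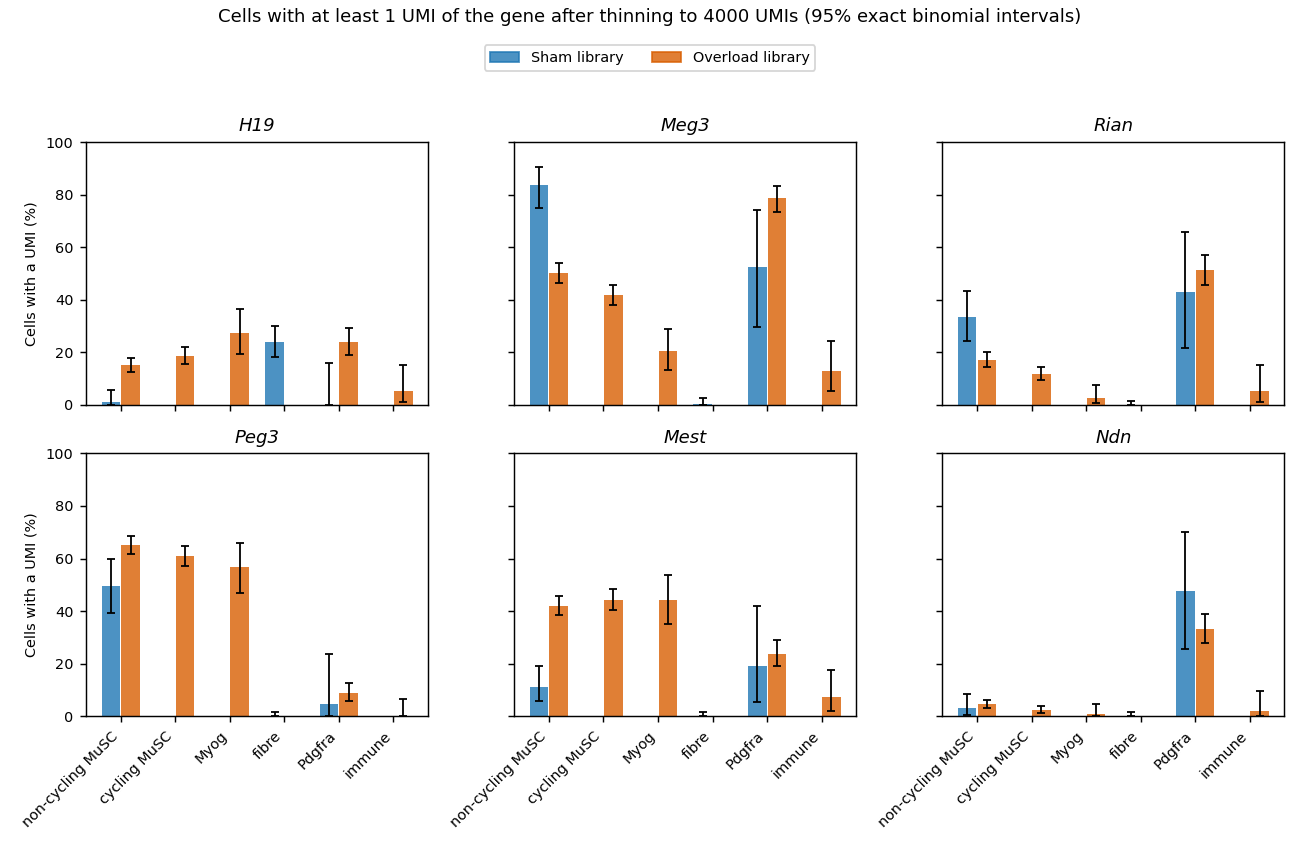
Share of cells with at least 1 UMI of 6 genes after thinning each cell to 4000 UMIs, by cell group with at least 20 such cells, in the sham (blue) and Overload (orange) libraries, with 95% exact binomial intervals. Meg3 is found in 83.8% of sham and 50.2% of MOV non-cycling MuSCs, Peg3 is found in 65.1% of MOV non-cycling MuSCs and 8.84% of MOV Pdgfra cells, and Ndn in 4.56% and 33.3%.

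Free RNA can place UMIs in cells that do not express a gene. In the 74 immune-marker cells of MOV, thinned to 4000 UMIs where deep enough (55 cells, median depth 9798 before thinning), Meg3 was found in 12.7%, H19 in 5.45%, Rian in 5.45%, Mest in 7.27%, Ndn in 1.82% and Peg3 and Dlk1 in none, which allows up to 6.49% by the exact interval. In MOV non-cycling MuSCs the intervals of Meg3 (46.5 to 53.9), Mest (38.4 to 45.7) and Peg3 (61.5 to 68.6) lay above those of the immune-marker cells, which reached 24.5% for Meg3 and 17.6% for Mest. Those of H19 (12.5 to 17.9) and Rian (17.0%, lower bound 14.3) overlapped the immune interval of both, 1.14 to 15.1. In MOV Pdgfra cells (median depth 35794) H19 (19.1 to 29.1), Rian (45.5 to 57.2), Meg3 (73.4 to 83.1) and Ndn (28.0 to 39.0) lay above it. The share of Ndn in MOV non-cycling MuSCs (4.56%) lay within the immune interval. Dlk1 was found in 2.90% of thinned non-cycling and 5.06% of cycling MuSCs of MOV. Without thinning, it was in 6.31% (4.66 to 8.33) and 14.9% (12.2 to 17.9) of these cells and in 0 of 74 immune-marker cells (up to 4.86%), where 0 of 961715 UMIs allows up to 3.12 CPM at 3 UMIs. Cycling MuSCs with 15.7 CPM of Dlk1 thus lay above the immune-marker cells, although they were deeper. H19 in sham myofiber droplets (23.8%, interval 18.3 to 29.9) lay above the 1.01% of sham non-cycling MuSCs. Of the 224 Meg3 UMIs in immune-marker cells, 134 were in 1 cell. Outside the groups above, tenocyte-marker cells of MOV had the highest Mest level, 622 CPM, and 251 CPM of H19 and 935 CPM of Meg3, and mural-marker cells had 787 CPM of Meg3.

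Cells of MOV thinned to equal depth showed which members occurred together. Among non-cycling MuSCs, 92.7% (86.6 to 96.6) of the 123 cells with a Rian UMI also held a Meg3 UMI, against 41.5% (37.5 to 45.6) of the 600 cells without. The shares were 86.5% and 35.8% in cycling MuSCs and 93.4% and 62.9% in Pdgfra cells. Cells with a Dlk1 UMI held Meg3 in 76.2% (52.8 to 91.8) of 21 cases against 49.4% of the others. Non-cycling MuSCs with an H19 UMI held Mest in 67.9% (58.3 to 76.5) of 109 cases against 37.5% (33.6 to 41.4) of the others. They held Peg3 in 77.1% (68.0 to 84.6) against 63.0% (59.1 to 66.9). In cycling MuSCs the intervals overlapped for Mest (44.8 to 63.4 and 37.8 to 46.5) and Peg3 (51.6 to 69.9 and 56.8 to 65.4). They also did in Pdgfra cells, for Mest (17.2 to 39.1 and 17.4 to 28.8) and Peg3 (5.07 to 21.3 and 4.83 to 12.4). The part of the marker states within non-cycling MuSCs in these shares was not tested. For Dlk1 and H19 in non-cycling MuSCs the shares were 14.3% (3.05 to 36.3) and 15.1% (12.5 to 18.0). All 13 non-cycling MuSCs with a Mirg UMI (75.3 to 100) held Meg3, against 49.3% of the others, while in cycling MuSCs 2 of 5 such cells did, 40.0% against 41.7%. In Pdgfra cells the shares for Mirg and Meg3 were 83.3% (62.6 to 95.3) and 78.1%. These cells share a library and are not replicates.

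Across the 16 cell groups of both libraries with at least 200000 UMIs, each member was ranked against 6063 genes by Pearson correlation of log2(CPM + 10). The closest gene to Meg3 was Rian, another member (0.93). The closest to Mirg was B830012L14Rik (0.97), a noncoding gene at chr12:109695586-109702587, between Rian and Mirg on the same strand, which was also among the 3 genes closest to Rian (0.87). Its levels were 29.4 CPM in sham and 6.74 CPM in MOV non-cycling MuSCs and 123 and 45.2 CPM in Pdgfra cells. Peg3 was closest to Iqsec3 (0.96), Fgfr4 (0.96) and Cdh15 (0.94), of which Fgfr4 and Cdh15 (M-cadherin) are known in the myogenic lineage. Grb10 was closest to Itm2a, Fscn1 and Pcdh7 (0.95 to 0.91), Ndn to the basement membrane genes Nid1 and Lamb1 and to Poglut3 (0.94 to 0.93), and Plagl1 to Ptgfrn, Colec12 and Egfr (all 0.91). The closest genes of H19 (Tmem258, Swi5 and Mrps16, 0.83 to 0.82), Mest (Ecrg4, Angptl4 and Mtch1, all 0.85) and Dlk1 (Pde10a, Ccl19 and Anxa6, 0.79 to 0.75) were less alike. Among the members themselves, Meg3 and Rian (0.93), Rian and Mirg (0.83) and Mest and Grb10 (0.80) were most alike, and Peg3 and Ndn least (-0.42). The points share libraries and depth, and the values are descriptive.

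A list of 59 other imprinted genes was counted in the same comparisons, and the shares of all genes compared stand in brackets after each count. In non-cycling MuSCs, 38 could be compared between MOV and sham, with 6 higher (20.1%) and 4 lower (8.94%) and a median of 0.30. Cdkn1c, an inhibitor of cell cycle kinases, had 28.4 and 146 CPM (2.37), and Kcnq1ot1, the noncoding RNA that regulates it, 288 and 100.4 CPM (-1.52). Of the others, Calcr (-1.96), a marker of the quiescent state that was also used to define groups, was lower. Nap1l5 (-3.02, interval -4.02 to -1.96) and Asb4 (-1.19, interval -2.45 to 0.34) were lower too. Mcts2 was higher (1.96, interval 0.59 to 3.85) on 4 sham UMIs. In Myog cells, 4 of 39 were higher (7.62%) and 8 lower (9.39%) than in non-cycling MuSCs, and Cdkn1c had 2568 CPM (4.13). In cycling MuSCs, 1 of 42 was higher (8.75%) and 8 lower (7.23%), among them Igf2 (33.2 against 68.8 CPM, -1.05). In matrix-marker cells, 4 of 33 were higher (3.23%) and 1 lower (2.69%). Igf2, the growth factor next to H19, was among the higher ones (111 against 46.6 CPM, 1.26), as was Ppp1r9a (1.16). So were Zim1 (1.47) and Usp29 (1.11, interval 0.09 to 2.15, from 20 and 16 UMIs), which lie beside Peg3.

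Igf2 and H19 share regulatory DNA, so their levels are set side by side. Igf2 had 36.8 CPM in sham and 68.8 CPM in MOV non-cycling MuSCs, 278 CPM in Myog cells with embryonic myosin and 50.1 CPM in those without (2.47). In sham myofiber droplets Igf2 had 1 UMI where H19 had 189, and in MOV Pdgfra cells 24 UMIs where H19 had 1421. Both genes were thus higher in matrix-marker and embryonic-myosin cells, whereas in sham fibers and MOV Pdgfra cells Igf2 had far fewer UMIs than H19. The embryonic-myosin level of Igf2 rested on 48 UMIs in 7 cells. In other myogenic states of MOV their levels did not move together. Quiescence-marker cells had 60.5 CPM of Igf2 against 46.6 CPM in the remaining cells, where H19 had 27.8 against 55.7 CPM. Cycling MuSCs had 33.2 CPM of Igf2 and 79.8 CPM of H19, Myog cells 58.9 and 159 CPM, and non-cycling MuSCs 68.8 and 69.3 CPM. In quiescence-marker cells of MOV, 3 of 35 other imprinted genes were higher (2.84%) and 2 lower (7.66%) than in the remaining cells. Calcr was among the 3, but it helped define these cells, so its higher level was set by the rule. Between the libraries within the quiescence-marker state 7 of 25 were higher (17.8%) and 0 lower (6.15%). In the 7 Myog cells with embryonic myosin, 9 of 23 were higher (12.1%) and 2 lower (21.8%). Zdbf2 had 278 against 44.8 CPM (2.63, interval 2.15 to 3.10), from 48 UMIs in these 7 cells.

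In myofiber droplets 13 of 22 other imprinted genes were lower than in MuSCs in sham (47.1%) and 3 higher (27.3%), and 8 of 17 were lower in MOV (30.0%) and 4 higher (24.6%), with medians of -1.70 and -0.96 against -0.80 and -0.22 over all genes. In Pdgfra cells of MOV, 7 of 41 were higher (20.1%) and 11 lower (12.8%). Dio3, a thyroid hormone deiodinase encoded at the far end of the Dlk1 domain at chr12:110279068-110281097, had 38.3 against 0.725 CPM (5.73), so that Dio3 was higher there like Meg3, Rian and Mirg of the same domain, and Dlk1 was not. B830012L14Rik, also of this domain, had the 45.2 and 6.74 CPM given above. Zdbf2 (-5.61) and Igf2 (-4.92) were lower. In sham Pdgfra cells, 4 of 15 were higher (19.7%) and 4 lower (18.3%) than in MuSCs, and between the libraries 2 of 30 were higher (14.1%) and 14 lower (17.7%) in MOV, with Cdkn1c at 336 and 47.6 CPM (-2.82). A second list held 14 genes of the imprinted growth network, the members other than Rian and Mirg with Igf2, Igf2r, Cdkn1c, Sgce, Gnas and Dcn. Of these, 3 were higher (H19, Cdkn1c and Mest) and 1 lower (Meg3) in MOV non-cycling MuSCs, where 20.1% and 8.94% of all genes were.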

How the data were processed

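The authors aligned reads to mm10 with Cell Ranger 6.0.0 (submitters' processing notes, which also name Seurat 4.0.2 and R 4.0.2) and deposited matrices of UMI counts, whole numbers without normalization, 1 per library. Droplets with 10% or more mitochondrial UMIs were removed here, and no doublet caller was run. Groups were set by marker thresholds (for MuSCs, Pax7, Myf5, Myod1 and Chodl summing to at least 2 UMIs and 0.5 per 10000). UMIs were summed per group, and log2 ratios of CPM were given exact conditional 95% intervals. A group with 0 UMIs was set at 3 UMIs, and a ratio whose bound then pointed the other way was not given. No p-value was computed, since each condition is 1 library. The ratio step was tested on simulated counts. Analyses used Python 3.11.15, numpy 2.4.6, scipy 1.17.1, pandas 2.3.3 and matplotlib 3.10.9, with TMM factors from edgeR 4.0.16 in R 4.3.3.

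Named were all 10 members, up to 6 other imprinted genes per comparison at least 2-fold apart, by the interval bound nearest 0, and the 3 genes most like each member among those reaching 50 CPM in a group. The text names a selection of these. Dio3 and B830012L14Rik come from the same rules. Members, lists and marker rules were chosen with earlier results of these data known. Alternatives to each comparison were other mitochondrial limits, doubled marker thresholds, a depth minimum, the deepest cells left out, other totals, TMM factors, means over cells and other UMI minimums. Chosen after seeing the data were 3 more: tenocyte markers not counted, the cell with the most UMIs left out, and barcodes found in both libraries left out. Sequences and promoter windows are from RefSeq (GRCm38.p6), and gene positions from GENCODE (GRCm38). RefSeq gave promoter windows for 9 members.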

Additional observations from a re-analysis of the deposited data

Results flagged for a closer look

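Meg3 was flagged in 2 ways, because its differences ran in opposite directions in different cells with counting intervals that excluded 0. Between MOV and sham its log2 ratio was -1.62 in non-cycling MuSCs and 0.22 in Pdgfra cells. Between Pdgfra cells and non-cycling MuSCs it was -0.62 in sham and 1.22 in MOV. Both describe the same 4 values, 1356 and 440 CPM in MuSCs and 884 and 1029 CPM in Pdgfra cells. With doubled marker thresholds the sham ratio of Meg3 between Pdgfra cells and MuSCs was -0.05, and the ratio between MOV and sham Pdgfra cells was 0.06, so the opposite direction all but vanished at that setting. The difference between the ratios was not tested, since each condition is 1 library.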

How the results depend on the processing

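Of 111 member ratios, 56 were at least 2-fold, and 39 of these stayed so with the same direction under every alternative that gave a value, whatever the UMI minimum. The 39 include Dlk1 between the libraries in quiescence-marker MuSCs, which gave no value without the 1 cell holding all 11 sham UMIs. They also include Mirg in the same comparison, which fell under 20 UMIs with doubled marker thresholds. Rian in Myog cells with embryonic myosin against those without turned from 2.15 to -0.93 at a mitochondrial limit of 5% and to -1.04 without the cell with the most UMIs, which held 9 of its 10 UMIs.

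The count of members at least 2-fold apart moved by over 1.5 times in 6 comparisons. With doubled marker thresholds it went from 6 to 1 for MOV against sham in quiescence-marker MuSCs, from 3 to 6 for quiescence-marker against remaining MuSCs and from 3 to 6 for sham Pdgfra cells against MuSCs. With a minimum of 100 UMIs, which leaves fewer genes, the first became 3, cycling against non-cycling MuSCs went from 2 to 1, embryonic myosin from 5 to 3, sham fibers from 8 to 4 and sham Pdgfra cells to 1, or to 5 with a minimum of 5. Without the cell holding the most UMIs the first was 3. The cycling count was 1 with the 5% deepest cells left out and 0 with the mean over cells. Apart from the minimum, the cause was not tested. Without the barcodes found in both libraries no count moved by over 1.5 times.

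No paired analysis was possible because each condition is 1 library. The MOV fiber droplets were shallow (median 745 UMIs), and the sham cycling (10) and Pdgfra (24) groups were small.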
